A study of Mus musculus with 8 samples.

Results

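Tendon and myotendinous genes were examined in gastrocnemius, a calf muscle that ends in the Achilles tendon, in a mouse model of arthritis induced by serum, with or without dipyridamole treatment. The set comprised 10 genes chosen by symbol, Tnmd, Scx, Mkx, Thbs4, Fmod, Comp, Cilp, Cilp2, Kera and Chad, out of 21833 protein-coding symbols in the count tables. All 10 were in the tables, and all 10 passed the filter on low counts that left 12755 genes. The rule takes no measured values, although the genes were listed with earlier results of these data known. The comparison bears on how much tendon and tendon-like tissue the dissected muscle held in each group. RA+Dipy mice (n = 4) had arthritogenic serum and a daily dose of 25 mg/kg dipyridamole that began on day 0, and RA mice (n = 4) had the serum alone. In both groups the recipients were male C57BL/6J mice aged 12 weeks, injected intraperitoneally with 100 µL of serum pooled from arthritic K/BxN mice on day 0 and day 2, and muscle was collected on day 16. Dipyridamole blocks the cellular uptake of adenosine and inhibits phosphodiesterases. GEO's genotype field reads K/BxN and its treatment protocol names dipyridamole for all 8 mice, whereas the series' design describes recipients of K/BxN serum of which 4 were treated. Groups were taken from the titles. Muscle from mice without arthritis was not analysed here.

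Tendon is built by tenocytes, which lay down parallel fibrils of collagen I and coat them with small leucine-rich proteoglycans and oligomeric glycoproteins that set the width and spacing of the fibrils. The transcription factors scleraxis and Mohawk hold the tenocyte programme, and the membrane protein tenomodulin marks the mature cell. At the myotendinous junction the muscle fibre is anchored to this matrix through integrins, and thrombospondin-4 is laid down there. Several of the same matrix proteins are also made in cartilage and in the connective tissue sheaths of muscle.

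The promoters of 7 of the 10 genes were taken from RefSeq (GRCm38.p6), as 300 bases running from 250 before the start to 50 from the start onwards. Scx and Comp had no entry in the promoter set used, and Mkx was left out. Those of Cilp, Tnmd and Thbs4, which follow Kera in log2 fold change, are shown here, because scleraxis belongs to the basic helix-loop-helix factors, which bind the E-box CANNTG. Capitals mark E-box matches. The motif CANNTG reads the same on both strands. The window matched for Kera is not shown, since it lies wholly inside the gene as annotated in GENCODE vM21.
Cilp (chr9:65264930-65265229, plus strand): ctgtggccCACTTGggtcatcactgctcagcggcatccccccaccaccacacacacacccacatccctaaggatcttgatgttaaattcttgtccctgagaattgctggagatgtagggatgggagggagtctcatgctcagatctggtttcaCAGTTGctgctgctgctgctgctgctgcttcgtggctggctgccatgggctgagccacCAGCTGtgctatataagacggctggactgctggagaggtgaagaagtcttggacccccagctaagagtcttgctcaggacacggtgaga
Tnmd (chrX:133850758-133851057, plus strand): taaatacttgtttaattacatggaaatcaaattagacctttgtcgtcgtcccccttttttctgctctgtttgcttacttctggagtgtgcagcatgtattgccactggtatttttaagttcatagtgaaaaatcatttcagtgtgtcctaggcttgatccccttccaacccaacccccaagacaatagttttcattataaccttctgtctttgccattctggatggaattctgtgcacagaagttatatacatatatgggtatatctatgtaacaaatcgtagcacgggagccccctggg
Thbs4 (chr13:92794769-92795068, minus strand): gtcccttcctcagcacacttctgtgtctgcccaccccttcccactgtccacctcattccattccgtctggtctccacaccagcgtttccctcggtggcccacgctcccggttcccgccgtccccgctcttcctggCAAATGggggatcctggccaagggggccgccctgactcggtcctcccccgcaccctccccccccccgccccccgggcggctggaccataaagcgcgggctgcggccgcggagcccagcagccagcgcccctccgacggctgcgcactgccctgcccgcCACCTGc
Cilp held 3 matches and Thbs4 2, while Tnmd held 0 in this window. Fmod and Chad held 1 each. Cilp2 held 1 and Kera 0, both in windows that lie wholly inside the gene as annotated. Of 32851 RefSeq promoters of this length, 72.3% held at least 1 match, so a match is common. The TATA letters TATAAA, searched on both strands, were found in Chad alone among the 7, against 13.6% of all promoters.

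The libraries held 16.4 to 25.4 M counts in RA+Dipy and 16.7 to 50.6 M in RA. RA+Dipy replicate 1 and RA replicate 4 stood apart from the other 6. Over 6941 genes with a mean of at least 10 CPM (counts per 1 M counts of a library, scaled with TMM factors), 19.1% of the genes in RA+Dipy replicate 1 and 40.1% in RA replicate 4 lay more than 2-fold from the 8-library median of the gene, against 0.130% to 0.994% in the others. Results on the tendon genes are therefore given with all 8 libraries and with the 6 that remain without this pair. Whatever sets the pair apart was not tested.

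All 10 tendon genes were detected in every library, with 35 counts or more, the lowest being Mkx in RA replicate 4. Together they took 0.0871%, 0.0812%, 0.147% and 0.113% of counts in RA+Dipy replicates 1 to 4, and 0.0670%, 0.0794%, 0.128% and 0.0403% in RA replicates 1 to 4. The summed level was 1007 ± 253 CPM in RA+Dipy and 806 ± 324 CPM in RA (SD, n = 4 each), and the groups overlapped. Per kilobase of exon, Fmod was the most abundant at 120 ± 21.3 CPM/kb in RA+Dipy and 113 ± 48.2 in RA, followed by Thbs4 at 92.6 ± 31.7 and 55.6 ± 26.1. Fmod lay above Thbs4, and Thbs4 above Chad, in 8 of 8 libraries. Chad, Cilp, Tnmd and Comp came next, with means over the 8 libraries of 25.4, 18.8, 18.0 and 17.6 CPM/kb, and neighbours in that order changed places in 3 or 4 of the 8 libraries. Cilp2, Kera and Scx followed at 9.28, 8.88 and 7.84 CPM/kb, also within each other's spread. The transcription factor Mkx was lowest, at 0.764 ± 0.440 CPM/kb in RA+Dipy and 0.553 ± 0.188 in RA.

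No tendon gene differed between RA+Dipy and RA muscle at an adjusted p under 0.05. Of the 10 genes, 6 had a log2 fold change above 0, where 52.2% of all genes tested did. Their median log2 fold change (RA+Dipy over RA) was 0.28, against 0.02 over all genes tested. The edgeR quasi-likelihood test called 0% of the 12755 genes in either direction, with a smallest adjusted p of 0.882 both over all genes and among the tendon genes. At an unadjusted p under 0.05 it gave 1 of the 10, Kera, which was higher in RA+Dipy, where 3.83% of all genes passed that mark, 1.68% with a higher and 2.15% with a lower level in RA+Dipy. With limma-voom and library weights, 1.04% of all genes and 0 of the 10 passed the adjusted threshold. The groups overlapped in all 10 tendon genes, and lay apart for 1.46% of all genes with RA+Dipy higher and for 1.26% with RA+Dipy lower. The plot of levels by library shows the spread within each group.

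**Figure D1:**
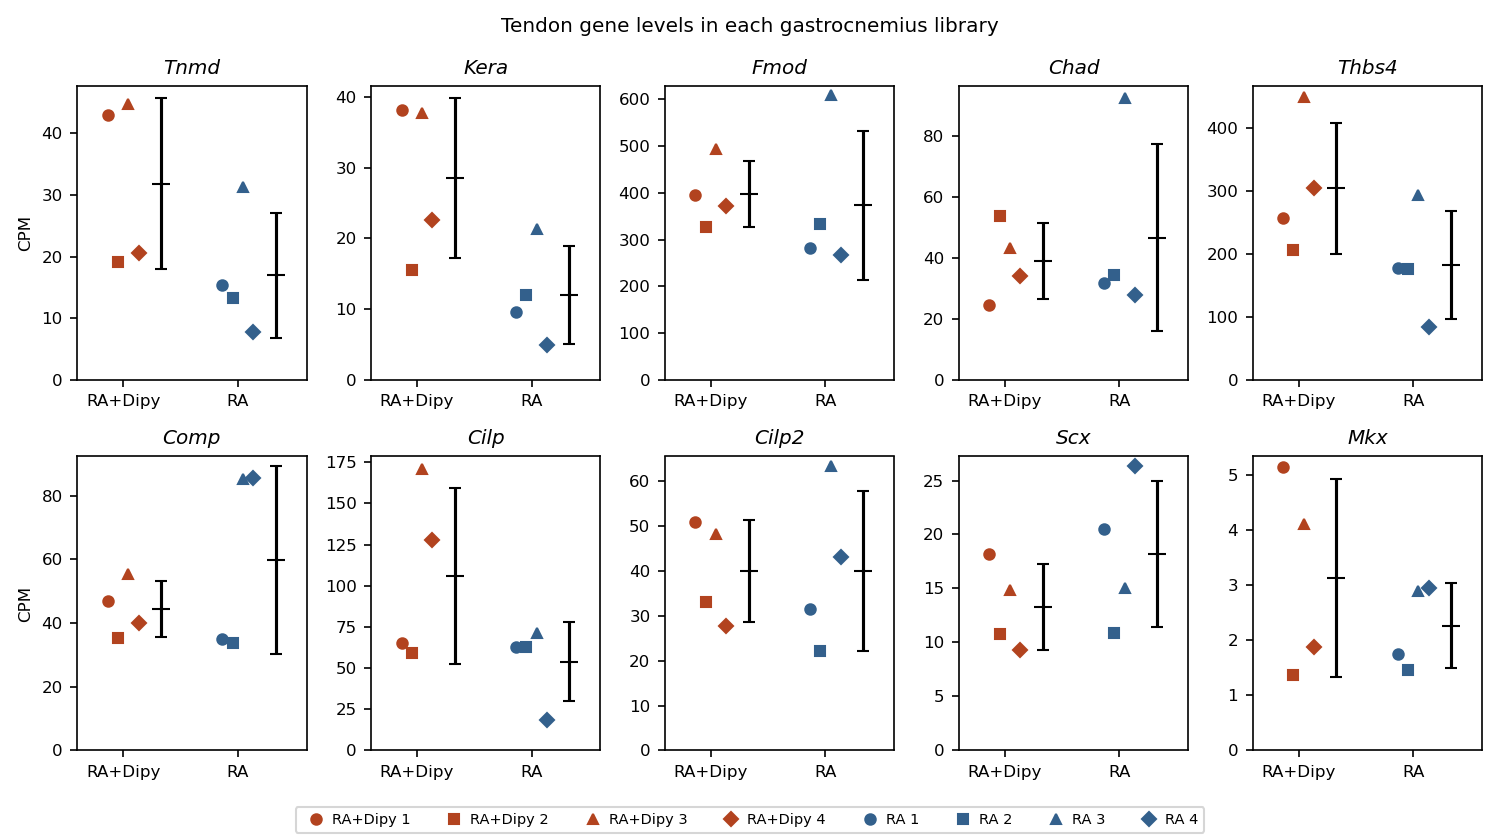
Level of each tendon gene in CPM (linear axes from 0), RA+Dipy on the left and RA on the right of each panel. Each point is a library, its shape gives the replicate number, and the bar gives the mean ± SD (n = 4); Kera has 3 of 4 RA+Dipy libraries above the highest RA library, and every gene has overlapping groups.

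Tenomodulin, Tnmd, a membrane glycoprotein that marks mature tenocytes, stood at 42.9, 19.1, 44.7 and 20.6 CPM in RA+Dipy replicates 1 to 4, and at 15.4, 13.2, 31.3 and 7.78 CPM in RA replicates 1 to 4. RA+Dipy replicates 1 and 3 were the highest and RA replicate 4 the lowest, while RA replicate 3 lay above the other RA+Dipy libraries. The means were 31.8 ± 13.9 CPM in RA+Dipy and 16.9 ± 10.1 CPM in RA, with a log2 fold change of 0.91 (SE 0.45, 95% interval −0.09 to 1.91; edgeR adjusted p = 0.882). Without the pair of libraries that stood apart the log2 fold change was 0.51 (SE 0.41).

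Scleraxis, Scx, the helix-loop-helix factor of tendon progenitors, did not follow Tnmd. It stood at 18.1, 10.8, 14.8 and 9.32 CPM in RA+Dipy replicates 1 to 4, and at 20.5, 10.9, 15.1 and 26.4 CPM in RA replicates 1 to 4. The groups overlapped, and RA replicate 4, where Tnmd was lowest, had the highest value. Its log2 fold change was −0.45 (SE 0.33, 95% interval −1.18 to 0.27), and −0.21 without RA replicate 4. Mohawk, Mkx, a homeobox factor that promotes tendon collagen synthesis, stood at 5.15, 1.37, 4.12 and 1.88 CPM in RA+Dipy and at 1.75, 1.46, 2.89 and 2.96 CPM in RA. RA+Dipy held both the highest value and the lowest value of Mkx. The log2 fold change of Mkx was 0.47 (SE 0.45), and 0.14 without RA+Dipy replicate 1.

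Among the leucine-rich proteins, keratocan, Kera, gave the highest log2 fold change of the set. Kera is a keratan sulphate proteoglycan best known from the cornea, where it spaces collagen fibrils. It stood at 38.2, 15.6, 37.7 and 22.6 CPM in RA+Dipy replicates 1 to 4, and at 9.61, 12.0, 21.4 and 4.99 CPM in RA replicates 1 to 4. All 4 RA+Dipy libraries lay above the RA median and 3 lay above the highest RA library, so the overlap came from RA+Dipy replicate 2 and RA replicate 3. The means were 28.5 ± 11.3 CPM in RA+Dipy and 12.0 ± 6.89 CPM in RA, with a log2 fold change of 1.24 (SE 0.45, 95% interval 0.25 to 2.24; edgeR adjusted p = 0.882). Without the libraries that stood apart it was 0.84 (SE 0.38; edgeR adjusted p = 0.437).

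Fibromodulin, Fmod, which binds collagen and guides fibril assembly, had similar means in the groups, at 397 ± 70.4 CPM in RA+Dipy and 373 ± 159 CPM in RA (log2 fold change 0.09, SE 0.33, 95% interval −0.64 to 0.81). Its RA+Dipy libraries held 394, 326, 493 and 373 CPM and its RA libraries 282, 334, 608 and 268 CPM. The sign of its log2 fold change turned negative when RA+Dipy replicate 3 (−0.034), RA replicate 1 (−0.025) or RA replicate 4 (−0.028) was left out. Chondroadherin, Chad, a leucine-rich protein that binds integrin and collagen, stood at 24.4, 53.6, 43.2 and 34.1 CPM in RA+Dipy and at 31.9, 34.2, 92.4 and 28.0 CPM in RA. RA replicate 3 alone set the higher RA mean: the log2 fold change was −0.26 (SE 0.42) with that library and 0.30 without it.

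Thrombospondin-4, Thbs4, a pentameric glycoprotein of tendon and of the muscle attachment, stood at 257, 207, 449 and 306 CPM in RA+Dipy replicates 1 to 4, and at 178, 177, 293 and 83.9 CPM in RA replicates 1 to 4. All 4 RA+Dipy libraries lay above the RA median, and replicates 3 and 4 above the highest RA library. The means were 304 ± 104 CPM in RA+Dipy and 183 ± 85.7 CPM in RA (log2 fold change 0.73, SE 0.40, 95% interval −0.15 to 1.62; edgeR adjusted p = 0.882). Without RA+Dipy replicate 3 the log2 fold change was 0.49. Comp, the thrombospondin of cartilage and tendon that brings collagen molecules together, ran the other way, at 46.9, 35.4, 55.5 and 40.0 CPM in RA+Dipy and at 35.0, 33.8, 85.1 and 85.7 CPM in RA. RA replicates 3 and 4 were the highest of the 8 libraries, whereas RA replicates 1 and 2 were the lowest. The log2 fold change of Comp was −0.43 (SE 0.36), and −0.19 without RA replicate 4.

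Cilp, cartilage intermediate layer protein, a secreted matrix protein that binds TGF-beta 1, stood at 65.0, 59.2, 171 and 128 CPM in RA+Dipy replicates 1 to 4, and at 63.0, 63.0, 71.2 and 18.8 CPM in RA replicates 1 to 4. RA+Dipy replicates 3 and 4 were far above the rest, RA replicate 4 was far below, and the remaining 5 libraries lay between 59.2 and 71.2 CPM. The means were 106 ± 53.4 CPM in RA+Dipy and 54.0 ± 23.8 CPM in RA (log2 fold change 0.97, SE 0.47, 95% interval −0.07 to 2.01; edgeR adjusted p = 0.882). Without RA+Dipy replicate 3 the log2 fold change was 0.63. With the 6 libraries it was 0.87 (SE 0.32; edgeR adjusted p = 0.418). Its paralogue Cilp2 averaged 40.0 ± 11.4 CPM in RA+Dipy and 40.1 ± 17.8 CPM in RA (log2 fold change −0.002, SE 0.35, 95% interval −0.79 to 0.78).

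**Figure D2:**
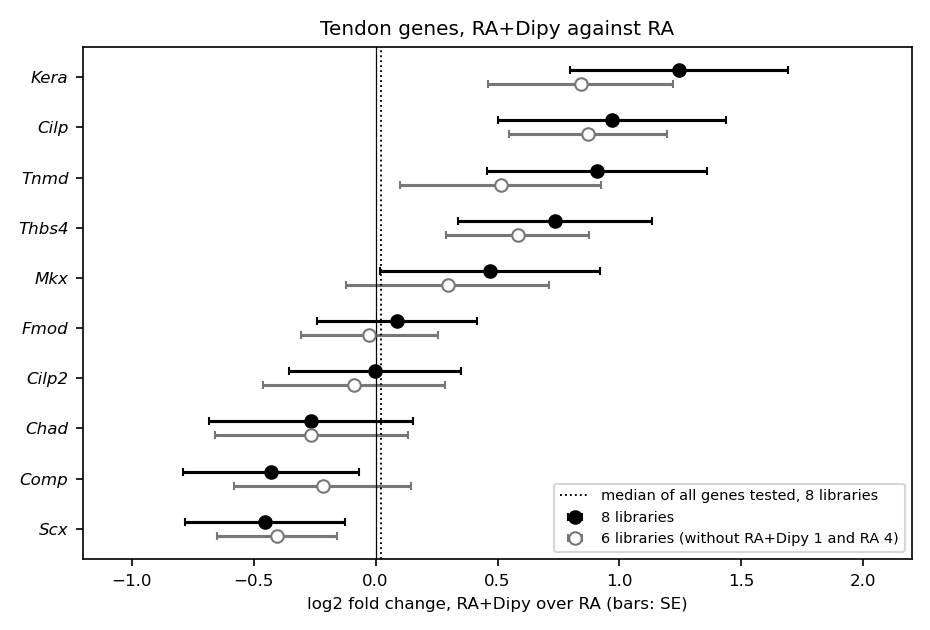
Log2 fold change of each tendon gene, RA+Dipy over RA, with its SE, from edgeR. Filled points use all 8 libraries and open points the 6 without RA+Dipy replicate 1 and RA replicate 4; Kera is highest at 1.24 (8 libraries), Scx lowest at −0.45, and the dotted line marks the median of all genes tested, 0.02.

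With the 6 libraries the tendon genes lay closer to 0: 5 of 10 had a log2 fold change above 0 (51.3% of all 12796 genes tested did), the median was 0.13 against 0.01 over all genes, and 1 of 10, Cilp, had an unadjusted p under 0.05 (11.4% of all genes did, 5.96% with RA+Dipy higher and 5.45% with RA+Dipy lower). The groups again overlapped in all 10 genes, where 7.92% of all genes lay apart with RA+Dipy higher and 6.21% with RA+Dipy lower. In that fit edgeR called 0% of genes after adjustment, as with all 8.

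Libraries differed in tendon gene content within each group. In RA+Dipy replicate 3, 9 of the 10 genes lay above their own 8-library median, with a median deviation of 0.59 log2 units, and in RA replicate 3 all 10 did, at 0.49. RA+Dipy replicate 2 and RA replicates 1 and 2 lay at −0.17, −0.31 and −0.41, each with 1 gene above its median. RA replicate 4 split the set: it was the lowest of the 8 libraries for Tnmd, Thbs4, Fmod, Cilp and Kera and the highest for Scx and Comp. RA+Dipy replicate 1 had 9 genes above their medians, with the highest values of Kera and Mkx and the lowest value of Chad. The group with the higher median deviation was thus RA+Dipy, at 0.165 ± 0.326 against −0.143 ± 0.427 in RA (SD, n = 4 each), a difference within the spread of either group.

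**Figure D3:**
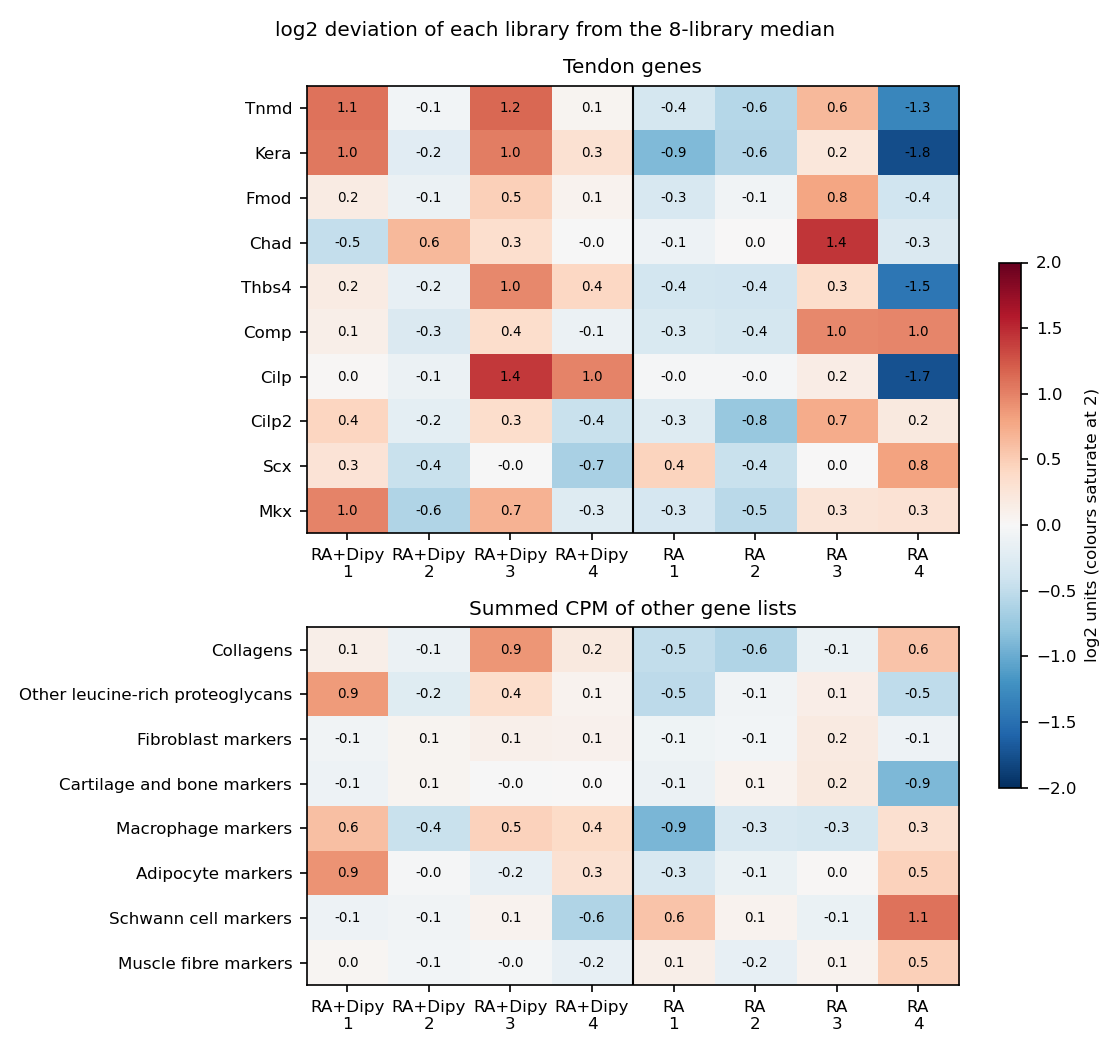
Log2 deviation of each library from the 8-library median, for each tendon gene (upper panel) and for the summed CPM of other gene lists (lower panel), with RA+Dipy libraries left of the line and RA libraries right of it. RA replicate 3 is positive for all 10 tendon genes, and RA replicate 4 is negative for Kera, Cilp, Thbs4 and Tnmd and positive for Scx and Comp.

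The tendon genes did not vary as 1 block. Likeness was measured as the root mean square difference, over the 8 libraries, of log2(CPM + 0.5) profiles centred on their medians. Tnmd and Kera were the closest pair of the set at 0.315 log2 units, followed by Thbs4 and Cilp at 0.343, and the farthest were Scx and Cilp at 1.21. Among 11704 other genes with a mean of at least 1 CPM, the nearest to Tnmd was Ctsk, the collagen-degrading protease cathepsin K, at 0.245, against a median of 0.893 over all genes compared. Ctsk stood at 19.6 ± 7.83 CPM in RA+Dipy and 8.71 ± 4.28 CPM in RA. Tmem45a, Crispld1, Anxa1, a phospholipid-binding protein, and Serpinb1a, a protease inhibitor, came next at 0.311 to 0.378. The nearest to the mean profile of the 10 genes were Clec11a, a growth factor for skeletal stem cells (0.147), Olfml3 (0.168), Antxr1, a collagen receptor (0.212), Rwdd2b (0.223) and the transmembrane collagen Col13a1 (0.227). The libraries that stood apart carry much weight in such distances.

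Ratios between members need no library scaling. The ratio of Kera to Comp, chosen after its values were seen and so given with no test, was 0.814, 0.439, 0.679 and 0.565 in RA+Dipy replicates 1 to 4, and 0.275, 0.354, 0.251 and 0.0582 in RA replicates 1 to 4. Every RA+Dipy library lay above every RA library. Of the 45 ratios between members, 8 (17.8%) kept the groups apart, in either direction, and 10 did with the 6 libraries. These ratios share genes, Kera, Thbs4, Fmod and Comp each recurring among the 8, so they are not separate results. The share among ratios of other genes was not computed, so 17.8% cannot be read as particular to tendon genes. The ratio of Thbs4 to Fmod, chosen in the same way, ran from 0.633 to 0.910 in RA+Dipy and from 0.314 to 0.630 in RA, so that the groups met at their edges. The ratio of Tnmd to Scx overlapped, at 1.76 to 3.02 in RA+Dipy and 0.295 to 2.08 in RA.

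**Figure D4:**
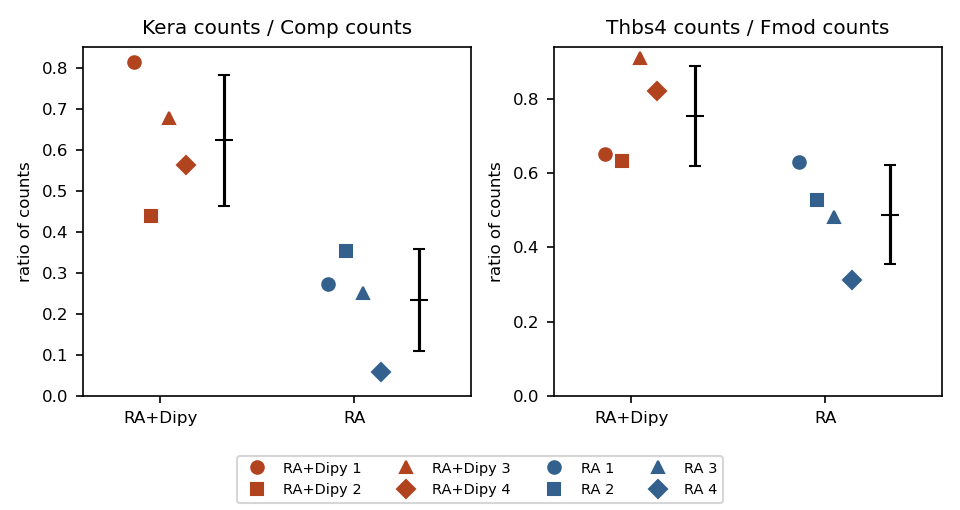
Ratio of Kera to Comp counts (left) and of Thbs4 to Fmod counts (right) in each library, RA+Dipy left of RA, with mean ± SD (n = 4). The lowest RA+Dipy library has a Kera to Comp ratio of 0.439 and the highest RA library 0.354; for Thbs4 to Fmod the edges are 0.633 and 0.630.

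Other genes of tendon matrix were read from lists of symbols. None of their genes passed the adjusted threshold in edgeR. Of 13 collagens of tendon and connective tissue, 9 had a log2 fold change above 0, with a median of 0.74, and 6 had an unadjusted p under 0.05, all higher in RA+Dipy, where 1.68% of all genes passed that mark in this direction. Without RA+Dipy replicate 3, the library with the highest collagen sum, 1 of the 13 did (median 0.53). With the 6 libraries, 12 of 13 were above 0 and 9 had an unadjusted p under 0.05, where 5.96% of all genes did with RA+Dipy higher. Col3a1, fibrillar collagen III, and Col5a2, a collagen V chain that nucleates fibrils, had the smallest p, with log2 fold changes of 1.44 (SE 0.51) and 1.23 (SE 0.43). Col1a1, the main collagen I chain, was at 657 ± 253 CPM in RA+Dipy and 766 ± 712 CPM in RA, with RA replicate 4 the highest of the 8 libraries, and its log2 fold change was −0.22 with all 8 libraries and 0.71 with 6. The summed level of the list was 1784 to 3548 CPM in RA+Dipy and 1277 to 2880 CPM in RA.

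Of the 13 other small leucine-rich proteoglycans, relatives of Fmod, Kera and Chad, 10 were tested and 9 had a log2 fold change above 0 (median 0.46). Lumican, Lum, and asporin, Aspn, had the smallest p, with log2 fold changes of 1.10 (SE 0.31; edgeR adjusted p = 0.882) and 0.90 (SE 0.45). Epyc, Optc and Podnl1 were too low to be tested. Of the 3 other thrombospondins 1 had a log2 fold change above 0, Thbs2 at 0.57 (SE 0.40), while Thbs3 stood at −0.25 (SE 0.30). With the 6 libraries Thbs3 stood at 0.12, 2 of the 3 were above 0, and the list's median was 0.12, against −0.18 with all 8. Of 15 further genes of tendon matrix and sheath, 10 were above 0 (median 0.31), led by Ptx4 at 1.25 (SE 0.42) and the matrilin Matn2 at 0.81 (SE 0.34). Both were highest in RA+Dipy replicate 1. With the 6 libraries Ptx4 stood at 0.97 and Matn2 at 0.435, and 9 of the 15 were above 0 (median 0.29). In that fit 2 had an unadjusted p under 0.05 with RA+Dipy higher and 2 with RA+Dipy lower, where 5.96% and 5.45% of all genes did. Of 21 tested signals and transcription factors of tendon formation, 12 were above 0 (median 0.007). Six2, a homeobox factor of connective tissue, had the smallest p among them, at 21.4 ± 5.41 CPM in RA+Dipy and 32.3 ± 2.61 CPM in RA (log2 fold change −0.59, SE 0.24; edgeR adjusted p = 0.882). Its groups did not overlap, at 29.1 CPM at most in RA+Dipy and 29.9 CPM at least in RA. Of all genes, 1.26% lay apart with RA+Dipy lower. Egr2, a zinc finger factor of tendon collagen expression, followed at 0.77 (SE 0.42).

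On the muscle side of the junction, 9 of 15 genes were above 0, with a median of 0.21 and none at an unadjusted p under 0.05. Itga7, the laminin-binding integrin chain of the junction, averaged 89.9 ± 3.00 CPM in RA+Dipy and 122 ± 37.3 CPM in RA (log2 fold change −0.45, SE 0.26). Its groups did not overlap, but only narrowly, at 93.5 CPM at most in RA+Dipy and 93.8 CPM at least in RA. Of all genes, 1.26% lay apart with RA+Dipy lower. Itga7 was highest in RA replicate 4, at 174 CPM, and with the 6 libraries its log2 fold change was −0.21. The fibrillar Col24a1 had a log2 fold change of 0.42 (SE 0.26). The groups of Col24a1 did not overlap either, in the opposite direction, where 1.46% of all genes lay apart with RA+Dipy higher. Col22a1, the collagen of the myotendinous junction, stood at 45.5 ± 8.12 CPM in RA+Dipy and 39.4 ± 11.6 CPM in RA (log2 fold change 0.21, SE 0.27).

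Markers of other tissue that a dissected muscle can hold were summed in the same way. In bulk tissue fewer cells of a type and less RNA per cell cannot be told apart. The 16 fibroblast and fibro-adipogenic progenitor markers differed little, at 2039 ± 106 CPM in RA+Dipy and 1958 ± 183 CPM in RA, with 8 of 16 above 0 and a median log2 fold change of −0.003. Fbn1 and Dpt, matrix proteins of connective tissue fibroblasts, had the smallest p among them, with log2 fold changes of 0.49 (SE 0.28) and 0.36 (SE 0.22). The 17 cartilage and bone markers summed to 17.2 to 19.2 CPM in RA+Dipy and 9.97 to 21.2 CPM in RA. Most of this was Alpl, tissue-nonspecific alkaline phosphatase, which is not confined to bone, at 11.6 to 13.5 CPM in RA+Dipy and 6.51 to 15.8 CPM in RA. No other gene of the list passed 3.32 CPM in any library. Bglap and Bglap2, osteocalcin genes of bone, had 0 counts in every library, which allows up to 0.0592 CPM (3 counts) in the deepest one and 0.183 CPM in the shallowest, and Acan, the cartilage proteoglycan aggrecan, averaged 0.349 ± 0.437 CPM in RA+Dipy and 0.166 ± 0.230 CPM in RA. The bone factor Runx2 had the smallest p of that list, at 1.08 ± 0.584 CPM in RA+Dipy and 0.299 ± 0.166 CPM in RA (log2 fold change 1.73, SE 0.51). These values rest on few counts, 15 to 29 in RA+Dipy libraries and 1 to 13 in RA libraries. With the 6 libraries the log2 fold change of Runx2 was 1.16. Its groups did not overlap, where 1.46% of all genes lay apart with RA+Dipy higher. Col2a1, the main collagen of cartilage, followed at 1.47 ± 0.405 CPM in RA+Dipy and 1.32 ± 0.176 CPM in RA (log2 fold change 0.17, SE 0.30).

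Markers that were more uneven between groups were those of macrophages, summed at 199 to 409 CPM in RA+Dipy and 143 to 336 CPM in RA. Of these, 12 of 14 were above 0 (median 0.68) and 5 had an unadjusted p under 0.05, all higher in RA+Dipy. Of all genes tested, 52.2% were above 0. An unadjusted p under 0.05 was reached by 1.68% of all genes with RA+Dipy higher and by 2.15% with RA+Dipy lower. Adipocyte markers ran from 2435 to 5089 CPM in RA+Dipy and 2197 to 3766 CPM in RA, with 10 of 12 above 0 (median 0.99) and 3 at an unadjusted p under 0.05. This rested on RA+Dipy replicate 4: Adipoq, which encodes the fat cell hormone adiponectin, stood at 20.3, 19.9, 22.9 and 101 CPM in RA+Dipy and at 15.0, 10.4, 11.6 and 24.0 CPM in RA. Without that library the adipocyte median was 0.12, with none at an unadjusted p under 0.05, and with the 6 libraries that include it the median was 1.604. Most of the sum was Lpl and Car3, which muscle fibres also express. Schwann cell and nerve sheath markers ran from 194 to 309 CPM in RA+Dipy and 269 to 625 CPM in RA, with 1 of 11 above 0 (median −0.66) and 3 at an unadjusted p under 0.05, all lower in RA+Dipy. Without RA replicate 4 the Schwann median was −0.22, with 4 of 11 above 0 and none at an unadjusted p under 0.05. With the 6 libraries, which also lack RA replicate 4, the Schwann median was −0.46, with 1 of 11 above 0. In that fit 3 Schwann markers had an unadjusted p under 0.05, all lower in RA+Dipy, where 5.45% of all genes did. Endothelial and mural markers had 9 of 16 above 0 (median 0.04), satellite cell markers 2 of 7 (median −0.11) and muscle fibre markers 5 of 15 (median −0.10). The muscle fibre sum was 190100 to 218700 CPM in RA+Dipy and 190300 to 296700 CPM in RA. The part of any of these tissues in the tendon gene values was not tested.

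Leaving out each library in turn gave 0 called genes each time in edgeR. Kera, Cilp, Tnmd, Thbs4 and Mkx kept log2 fold changes above 0, and Scx and Comp below 0, in all 8 of these fits. The sizes varied: Kera ran from 1.01 to 1.67, Tnmd from 0.69 to 1.38, Thbs4 from 0.49 to 1.05, Cilp from 0.63 to 1.16 and Mkx from 0.14 to 0.72. Tendon genes at an unadjusted p under 0.05 numbered 0 when RA+Dipy replicate 3 or RA replicate 1 was left out and 3 when RA+Dipy replicate 2 or RA replicate 3 was, against 1 with all 8. Leaving out RA replicate 3, the RA library richest in tendon genes, moved Kera, Tnmd, Thbs4, Fmod, Cilp2 and Chad further than leaving out any other library: Kera then stood at 1.67, Tnmd at 1.38 and Thbs4 at 1.05, and the median over the 10 genes was 0.52. The median was lowest, at 0.11, when RA+Dipy replicate 1 was left out.

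**Figure D5:**
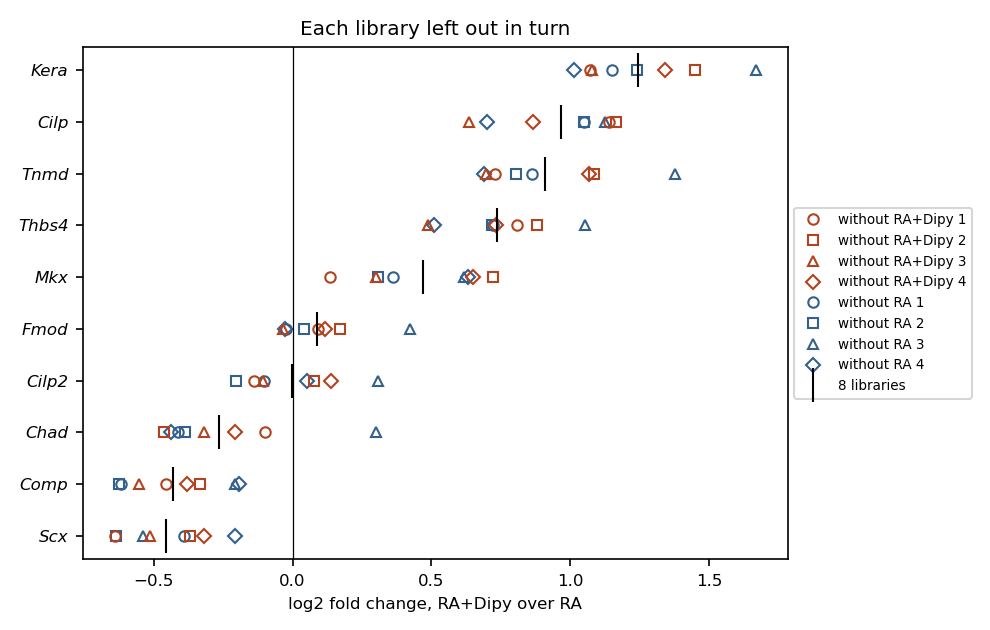
Log2 fold change of each tendon gene, RA+Dipy over RA, in fits that leave out 1 library each (open symbols, orange for an RA+Dipy library and blue for an RA library) beside the value with all 8 (vertical bars). Kera stays between 1.01 and 1.67, and Chad, Cilp2 and Fmod lie on both sides of 0.

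Of the 10 genes, 9 share no exon bases with another annotated gene in GENCODE vM21 (GRCm38), and Mkx shares 201 with AC148004.2, an annotated gene on its own strand. Tnmd lies on chromosome X at 133850980 to 133865577, Kera on chromosome 10 at 97606879 to 97613692, Cilp on chromosome 9 at 65265180 to 65280605, and Thbs4 on chromosome 13 at 92751590 to 92794818. Scx, a gene of 2007 exon bases on chromosome 15 at 76457452 to 76459458, lies within Bop1 on the opposite strand with 0 shared exon bases. Comp (70373558 to 70382066) and Cilp2 (69880369 to 69887687) both lie on chromosome 8.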

How the data were processed

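Poly(A) RNA of gastrocnemius from 8 mice was sequenced as single reads of 100 nt. Reads were trimmed with fastp 0.20.0 and aligned by STAR 2.7.3a to GRCm38.p6, and HTSeq counted them without regard to strand, per the labels and the series' design; the gene annotation behind the counts is not stated there. The labels name TruSeq libraries and the design text a directional NEBNext kit. The authors deposited raw counts per protein-coding gene. Repeated symbols (24) were summed.

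Genes were kept by filterByExpr (minimum count 10), scaled by TMM and tested by quasi-likelihood in edgeR 4.0.16 (R 4.3.3; robust estimates, group as the sole term, two-sided), with Benjamini-Hochberg adjustment over all genes tested and a threshold of 0.05. The script was tested on simulated data. SE is the log2 fold change over the root of its F statistic, and 95% intervals use the degrees of freedom of the test. Alternatives used DESeq2 1.42.0 and limma 3.58.1. The tendon genes and the lists were chosen with earlier results of these data known. Beside all 10 tendon genes, the text names the 2 tested genes with the smallest p of each list it describes gene by gene, and the 5 genes nearest in profile. Acan, Adipoq, Alpl, Bglap, Bglap2, Car3, Col1a1, Col22a1 and Lpl were named after their values were seen. Replicates of a group all differed by more than sampling noise (smallest chi-square per degree of freedom 29.3). The upper limits from a count of 0 cover counting error only.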

Additional observations from a re-analysis of the deposited data

Results flagged for a closer look

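In groups of 4 libraries, 2 values of tendon genes lay far from the other 3 by Dixon's criterion, of 20 groups tested, where chance marks about 1 in 20. Cilp stood at 18.8 CPM in RA replicate 4, with the other RA libraries at 63.0 to 71.2 CPM. Chad stood at 92.4 CPM in RA replicate 3, with the other RA libraries at 28.0 to 34.2 CPM.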

How the results depend on the processing

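Of 18 alternatives run, 17 called 0 genes, and limma-voom with library weights called 133 (111 higher and 22 lower in RA+Dipy, 1.04% of genes). None of the 10 tendon genes was among them; the smallest adjusted p of a tendon gene was 0.0801, for Cilp (log2 fold change 0.97), and Kera had 0.0931. Its lowest weights were 0.174 (RA+Dipy replicate 1) and 0.110 (RA replicate 4). Unadjusted p-values under 0.05 numbered 3633 in that fit (28.5% of genes, 3 of them tendon genes), 740 in DESeq2 and 488 in edgeR. The median log2 fold change of the 10 genes stayed above 0, between 0.11 and 0.52 over the fits that leave out 1 library. Fmod changed sign with library weights (−0.023), with the 6 libraries (−0.026) and in 3 of the fits that leave out 1 library (values over these fits −0.034 to 0.423). Cilp2 changed sign with upper-quartile factors (0.06), limma-voom (0.058), the replicate block (0.06) and 4 of the fits that leave out 1 library (values over these fits −0.20 to 0.31). Chad changed sign without RA replicate 3 (0.30; values over these fits −0.46 to 0.30). The cause was not tested.

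The replicate number as a block gave 0 calls and 165 genes at an unadjusted p under 0.05. Deviations of libraries with the same number correlated across genes at −0.196, 0.112, 0.148 and −0.266 for numbers 1 to 4. Those of RA+Dipy replicate 1 and RA replicate 4, the libraries that stood apart, correlated at 0.352. Whether the numbers pair the mice cannot be told from such correlations.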
